A study of Mus musculus with 34 samples.

Results

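The genes described here are 10 genes of secreted plasma proteins that the liver expresses strongly: Alb, Ttr, Trf, Fga, Fgb, Fgg, Ahsg, Ambp, Rbp4 and Gc. They were chosen by name from a table of 51368 mouse genes, and all 10 were found in it. The study prepared 34 RNA sequencing libraries from the tissue of 1 wild-type C57BL/6J mouse aged 12 weeks, with no treatment named. The samples' attributes give the animal as female and the growth protocol gives it as male. The study asked how the removal of ribosomal RNA (rRNA), the length of the sequenced fragments and the speed of the PCR temperature changes (the ramp rate) alter RNA sequencing. All 33 liver libraries come from the liver of this animal, so they are technical preparations, and every p-value below measures the spread between preparations and not between animals. The groups were 9 polyA-selected libraries (TruSeq Stranded mRNA, batch 1), 9 libraries with rRNA removed by probe pull-down (TruSeq Stranded Total RNA, batch 2), and 9 with rRNA removed by enzymatic digestion (Illumina Stranded Total RNA with Ribo-Zero Plus, with exchanged adapters, batch 2). Each of these sets covers 3 ramp rates by 3 fragment lengths. There were also 3 liver libraries without selection in batch 1, 3 in batch 2, and 1 heart library without selection in batch 1. These unselected libraries all used the slow ramp and fragments of medium length. Selected libraries started from 200 ng of RNA and unselected ones from 20 ng, with 13 PCR cycles in each.

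Hepatocytes make most of the protein dissolved in blood plasma and secrete it through the endoplasmic reticulum and Golgi. Albumin, from Alb, carries fatty acids, hormones and drugs and holds water in the circulation. Transferrin (Trf) carries iron, the vitamin D binding protein (Gc) carries vitamin D metabolites, and retinol binding protein (Rbp4) travels bound to transthyretin (Ttr), which also carries thyroxine. Fga, Fgb and Fgg encode the Aα, Bβ and γ chains that assemble into fibrinogen, the precursor of the fibrin clot. Ahsg encodes fetuin-A, which keeps calcium phosphate in solution, and Ambp encodes a precursor that is cut into α1-microglobulin and the bikunin protease inhibitor. In mature mRNA these messages carry poly(A) tails, the feature that polyA selection uses.

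On GRCm38, all 10 are protein-coding genes in the GENCODE M21 annotation. The carriers are Alb (ENSMUSG00000029368, chr5:90460897-90476602), Gc (chr5:89417522-89457898), Ttr, Rbp4 (chr19:38116629-38125281) and Trf (chr9:103204001-103230444). The fibrinogen genes lie side by side as Fgg (chr3:83007724-83015049), Fga (chr3:83026076-83033627) and Fgb (chr3:83040141-83049863). Ahsg lies at chr16:22891277-22899449 and Ambp at chr4:63143275-63154799. Alb, Fga, Fgg and Ahsg are on the plus strand with Ttr, and the other 5 are on the minus strand. Their longest coding transcripts run from 1161 nt (Rbp4) to 3810 nt (Fgb), with a GC content between 42.7% (Fgg) and 55.6% (Rbp4). Counts of antisense genes that overlap Fgg and Ahsg never passed 0.0473% of the counts of their partner in a liver library. Gm20425, a protein-coding gene that overlaps Trf on the same strand, was not among the 51368 genes. Its part in the Trf counts was not tested.

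The proximal promoters of liver genes are a textbook setting for hepatocyte nuclear factor 1, whose palindromic binding motif contains the letters GTTAAT. RefSeq promoter windows on GRCm38.p6, from 250 bases before to 50 after the annotated start, were used for 8 of the 10 genes. Ttr and Trf were not searched. GTTAAT, searched on both strands, occurred in the windows of 4 of these genes, Alb, Gc, Fga and Fgb. These were 4 of the 9 windows of the 8 genes. Of 32851 windows of this length over the genome, 7.10% held GTTAAT. The letters CCAAT, searched in the same way, occurred in windows of 5 of the 8 genes, and 37.4% of the 32851 windows held them. The 150 bases before the start are shown for the 4 genes with GTTAAT because the difference between liver and heart, given last, was the largest one measured for them. RefSeq starts can differ from those of GENCODE. The sequences are written 5′ to 3′ on the strand of the gene, and capitals mark GTTAAT or its reverse complement.
Alb, chr5:90460720-90460869, plus strand: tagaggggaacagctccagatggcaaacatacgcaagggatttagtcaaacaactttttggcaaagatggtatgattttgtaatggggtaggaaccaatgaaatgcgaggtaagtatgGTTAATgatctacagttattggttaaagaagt
Gc, chr5:89457899-89458048, minus strand: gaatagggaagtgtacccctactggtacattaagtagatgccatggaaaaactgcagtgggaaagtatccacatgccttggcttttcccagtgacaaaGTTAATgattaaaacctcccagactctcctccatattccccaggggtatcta
Fga, chr3:83026003-83026152, plus strand: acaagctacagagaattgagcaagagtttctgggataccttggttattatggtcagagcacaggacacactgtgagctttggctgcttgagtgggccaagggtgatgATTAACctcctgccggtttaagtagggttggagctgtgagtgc
Fgb, chr3:83049864-83050013, minus strand: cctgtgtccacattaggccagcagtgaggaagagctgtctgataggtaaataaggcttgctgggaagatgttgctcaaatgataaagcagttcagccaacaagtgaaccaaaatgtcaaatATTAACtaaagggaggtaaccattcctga
The first base of the match stood 32 bases before the start in Alb, 29 in Fgb, 43 in Fga and 52 in Gc. A match of letters is a description of the sequence, and no binding was measured in these libraries.

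Library totals ran from 19.9 M to 41.4 M counts (M stands for 1e6) in 33 of the 34 libraries. The pull-down library of long fragments made with the slow ramp, called the low-depth library below, held 1.13 M. Levels across methods are given as shares of the counts left after rRNA genes, and Lars2, whose annotated gene holds an rRNA-like stretch, were taken out (called non-rRNA counts). These made up 14.3% to 15.2% of the unselected liver libraries, 75.5% to 85.8% of the pull-down libraries and at least 98.9% of the polyA and digestion libraries. The liver label was checked with 10 hepatocyte markers, which summed to between 1.98% and 2.77% of non-rRNA counts in the liver libraries, and with 8 cardiomyocyte markers, which stayed at or below 0.000166%.

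In unselected liver RNA the 10 genes together took 9.79%, 9.83% and 9.85% of non-rRNA counts in batch 1 and 9.81%, 9.81% and 9.77% in batch 2. The 6 libraries lay close together, and the ranges of the batches overlapped. Alb alone took 5.89%, 5.94% and 5.96% in batch 1 and 5.93%, 6.03% and 5.91% in batch 2. Trf followed with a share of 1.35% ± 0.0136 (SD, n = 3) in batch 1. The other 8 genes had mean shares between 0.140% (Ambp) and 0.514% (Ahsg) in that group.

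Shares depend on transcript length, so levels were ordered between genes only per length, as CPM of non-rRNA counts divided by the kilobases of the longest coding transcript. On this scale the unselected libraries of batch 1 gave Alb 29159 ± 200.1 (SD, n = 3), Trf 5245 ± 52.8, Ahsg 3466 ± 18.0, Ttr 2585 ± 14.7 and Gc 2462 ± 18.6. Alb was thus several times above the next gene. Fga at 1500 ± 4.08 and Fgg at 1496 ± 13.7 did not differ beyond their spread. The last 3 were Rbp4 at 1281 ± 10.2, Ambp at 1106 ± 7.05 and Fgb at 902 ± 5.28. Unselected batch 2 gave the same order, with Ttr (2493 ± 119) and Gc (2490) level within their spread. With digestion Fga and Fgg, which were level, changed places, and with polyA selection the order was that of the unselected libraries. With pull-down Rbp4 moved to the last place, at 474 ± 87.2 (SD, n = 9), below Fgb at 1120 ± 61.7.

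**Figure D1:**
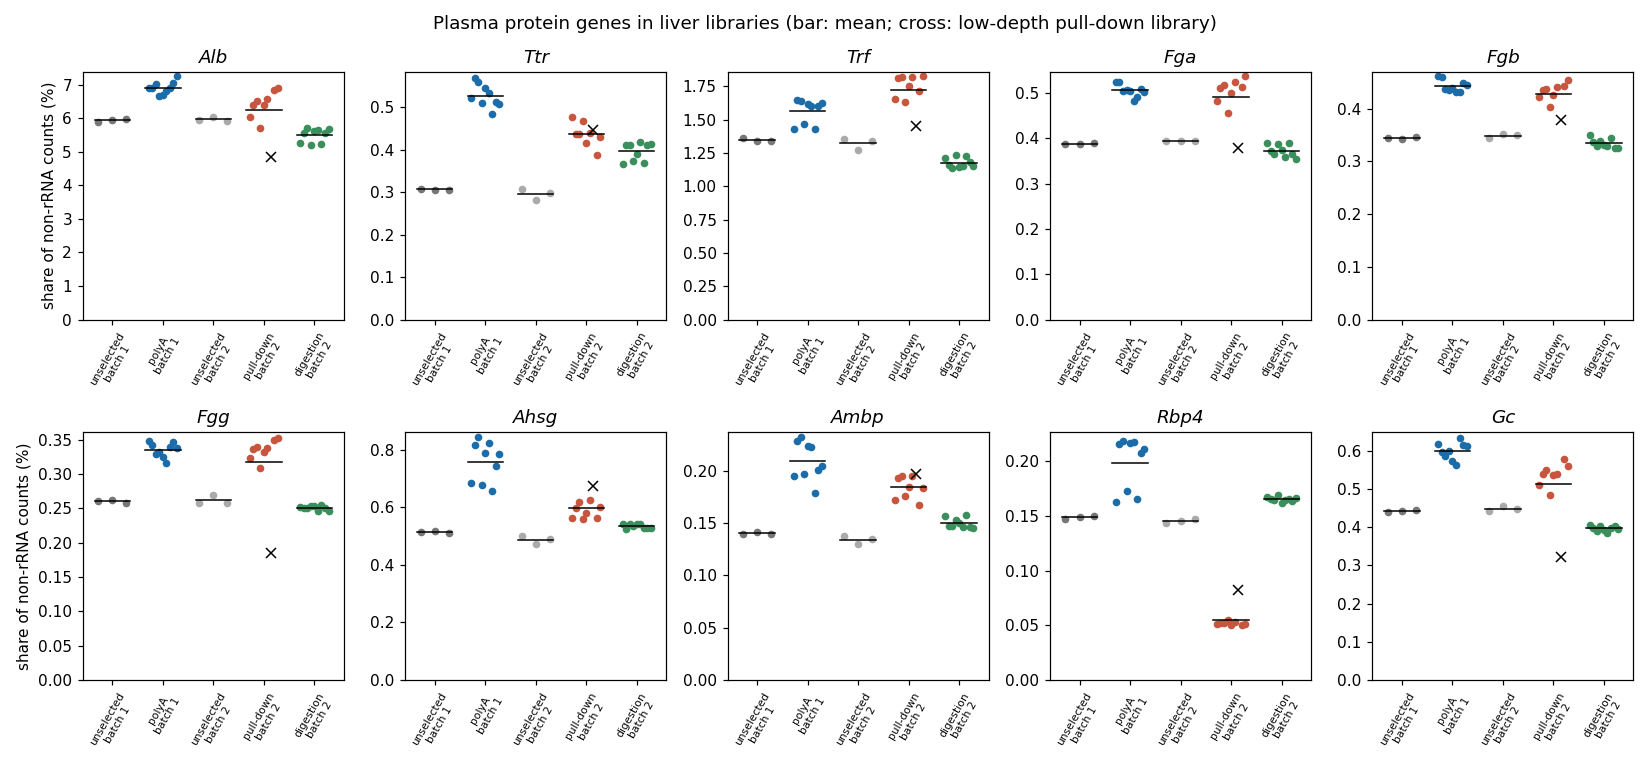
Share of non-rRNA counts (%, y axis from 0) of each gene in the 33 liver libraries, by group; each point is a library, the bar is the group mean and the cross is the low-depth pull-down library. The polyA points of every gene lie above the unselected points of batch 1, and for Rbp4 the pull-down points lie between 0.0498% and 0.0818%, below all other liver libraries.

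PolyA selection raised all 10 genes above their level in unselected RNA of batch 1. Their summed share ran from 11.6% to 12.5% with a mean of 12.05% ± 0.319 (SD, n = 9), against the 9.79% to 9.85% given above, a ratio of means of 1.23. With Lars2 kept in the denominator the ratio was 1.904. For each gene, all 9 polyA libraries lay above all 3 unselected ones. How many of all genes lay apart in this way was not counted, here or in the comparisons below. By edgeR's quasi-likelihood test on TMM-normalised counts across all genes (adjusted p under 0.05), 10 of 10 genes were higher, where 50.4% of the 15408 genes tested were called in either direction, 25.6% higher and 24.8% lower. The median log2 fold change of the 10 was 0.55, against 0.04 over all genes tested.

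Among the carriers, the share of Ttr rose from 0.309%, 0.306% and 0.305% in the unselected libraries to between 0.485% and 0.569% (median 0.522%) after polyA selection. The groups were far apart, and the log2 fold change was 0.87 ± 0.0642 (SE; edgeR adjusted p = 1.28e-12). Alb rose less, to between 6.66% and 7.26% (median 6.91%), with a log2 fold change of 0.39 ± 0.0838 (edgeR adjusted p = 2.36e-04). Trf had the smallest change, at 0.36 ± 0.0686 (edgeR adjusted p = 6.32e-05). Gc (0.60 ± 0.113) and Rbp4 (0.57 ± 0.106) lay between. Ahsg (0.68 ± 0.0619) and Ambp (0.67 ± 0.0597), the fetuin and bikunin precursor genes, were among the 3 most raised. The 3 fibrinogen genes rose by nearly the same amount, Fga by 0.52 ± 0.0797, Fgb by 0.51 ± 0.0576 and Fgg by 0.51 ± 0.119 on the log2 scale. Scaling by totals of non-rRNA counts in place of TMM moved the median of all genes from 0.04 to -0.11, and all 10 genes were still called higher. Method, kit and, between polyA and the rRNA-depleted libraries, batch go together in this design and cannot be told apart. The input of 20 ng against 200 ng likewise goes with every comparison to unselected RNA.

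Pull-down raised 9 of the genes and lowered Rbp4. Their summed share was 8.95% in the low-depth library and 10.2% to 11.9% in the other 8, against 9.77% to 9.81% in unselected RNA, a ratio of means of 1.12, or 1.76 with Lars2 kept in. Of the 15408 genes tested, 32.8% were called by edgeR in either direction in this comparison, 17.5% higher and 15.3% lower. The median log2 fold change of the 10 was 0.46, against 0.06 for all genes tested. Rbp4 took 0.144%, 0.146% and 0.147% of non-rRNA counts in the unselected libraries of batch 2. In the 9 pull-down libraries its share was lowest at 0.0498%, had a median of 0.0521% and was highest at 0.0818%, the last in the low-depth library. Without that library the highest value was 0.0548%. No pull-down library came near the unselected range, and the gap was much wider than the spread in either group. The mean share was 2.64-fold lower than in unselected RNA. The size and direction depended on the denominator: it was 1.68-fold lower with Lars2 kept in, and as a share of all counts, rRNA included, it was 2.03-fold higher with pull-down. The log2 fold change was -1.23 ± 0.103 (SE; edgeR adjusted p = 4.58e-11), which is 2.34-fold lower, and -1.33 ± 0.0606 without the low-depth library. Counting error was small, since Rbp4 had at least 10117 counts in each of the other 8 pull-down libraries and 4368 to 4442 counts in the unselected ones. Of all genes tested, 4.10% had a fold change as low or lower.

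Ttr, whose protein partners that of Rbp4 in plasma, moved the other way. Its share rose from 0.309%, 0.281% and 0.298% in the unselected libraries of batch 2 to between 0.388% and 0.476% (median 0.438%) with pull-down, a log2 fold change of 0.69 ± 0.0641 (edgeR adjusted p = 4.21e-10). Per kilobase, the ratio of Rbp4 to Ttr was 0.504 ± 0.0275 (SD, n = 3) unselected, 0.428 ± 0.0268 (SD, n = 9) with digestion and 0.129 ± 0.0225 (SD, n = 9) with pull-down. Trf went from 1.36%, 1.27% and 1.34% to between 1.45% and 1.82% (median 1.76%), with a log2 fold change of 0.55 ± 0.0691 (edgeR adjusted p = 1.41e-07). Ambp rose by 0.59 ± 0.0596, Fga by 0.48 ± 0.0797, Fgb by 0.46 ± 0.0575, Fgg by 0.46 ± 0.119 and Ahsg by 0.45 ± 0.0615 on the log2 scale.

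The calls of Alb and Gc, but not their direction, changed with the scaling in this comparison. The Alb share with pull-down ran from 4.83% to 6.89% (median 6.39%) and overlapped the unselected values of batch 2, with 6 of 9 libraries above all 3 of them and 2 below. On the TMM scale the Alb log2 fold change was 0.27 ± 0.0834 (edgeR adjusted p = 0.0137), and on totals of non-rRNA counts it was 0.10 and was not called (edgeR adjusted p = 0.36). That scaling moved the median of all genes by a like amount, from 0.06 to -0.12. A fit on the compared groups alone also ended the calls of Alb (edgeR adjusted p = 0.18), Fgg (0.164) and Gc (0.169). For Gc the log2 fold change was 0.39 ± 0.112 with TMM (edgeR adjusted p = 0.00699) and 0.22 on those totals (edgeR adjusted p = 0.106). Small structured RNAs took 8.40% to 15.5% of non-rRNA counts in pull-down libraries, against 4.24% to 4.95% in the unselected libraries of batch 2, and their part in the shares was not tested. On protein-coding counts alone the summed share was 1.15 times that of the unselected libraries.

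The low-depth pull-down library stood apart for several of the genes. Its shares of Alb (4.83%), Trf (1.45%), Fga (0.379%), Fgb (0.378%), Fgg (0.184%) and Gc (0.322%) were below those of the other 8 pull-down libraries, and those of Ahsg (0.673%), Ambp (0.197%) and Rbp4 (0.0818%) were above. Its 695 counts of Rbp4 give an exact 95% binomial interval of 0.0758% to 0.0881%, against 0.0498% to 0.0548% in the other 8. Such intervals cover counting error only, not the spread between preparations or PCR copies of a molecule. For Fgg, 1568 counts give 0.175% to 0.194%, against 0.308% to 0.353% in the other 8. Without this library, edgeR still called 9 genes higher and Rbp4 lower against unselected RNA, where 5390 of all 15384 genes tested were called.

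Digestion gave small differences from unselected RNA, with a median log2 fold change of -0.15 over the 10 genes against 0.04 over all genes tested. The summed share was lowest at 9.06%, had a median of 9.34% and was highest at 9.45%, below the 9.77% to 9.81% of the unselected libraries of batch 2, a ratio of means of 0.947. This direction depended on leaving Lars2 out of the denominator: with Lars2 kept in, the mean share was 9.28% with digestion and 6.21% unselected, a ratio of 1.49. On the TMM scale, edgeR called 1 gene higher and 1 lower, where 14.7% of genes tested were called, 7.07% higher and 7.66% lower. At an unadjusted p under 0.05 the count was 6 of 10, against 4083 of all 15408 genes tested. DESeq2 called 6 of 10, against 2404 of 15404 genes. Ttr rose by 0.29 ± 0.0628 on the log2 scale (edgeR adjusted p = 0.00176), with shares of 0.365% to 0.418% (median 0.412%) in the 9 digestion libraries, all above the unselected ones. Trf fell by 0.25 (log2 fold change -0.25 ± 0.0676, edgeR adjusted p = 0.0104), with shares of 1.14% to 1.23% (median 1.16%), all below the unselected ones.

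The count of called genes in that comparison rested on the low-depth pull-down library, which shares the estimate of spread in the fit. Without it, edgeR called 7 of the 10, Ttr higher and Trf, Gc, Fga, Alb, Fgb and Fgg lower, against 2715 of all 15384 genes tested in that fit. The log2 fold changes moved little, for Alb from -0.18 ± 0.0825 to -0.16 ± 0.0398 and for Gc from -0.24 ± 0.111 to -0.22 ± 0.0431. On totals of non-rRNA counts only Ttr was called (0.38), and the median of all genes moved from 0.04 to 0.12. In shares with Lars2 left out, Alb took 5.21% to 5.71% (median 5.56%) with digestion, below all 3 unselected values. The shares of Ahsg (0.525% to 0.542%), Ambp (0.145% to 0.157%) and Rbp4 (0.162% to 0.169%) lay above all 3 unselected values in all 9 digestion libraries. On the TMM scale these 3 had log2 differences of 0.03 ± 0.0608, 0.03 ± 0.0586 and 0.12 ± 0.105, which did not pass the test. The number of all genes with shares above all 3 unselected values in the 9 digestion libraries was not counted. The 4 adult globin genes, used as red cell markers, took 0.000462% to 0.000764% of non-rRNA counts with digestion against 0.0343% to 0.0363% unselected, and their part in these shares was not tested.

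Set directly against pull-down, within batch 2, digestion gave lower values for 9 genes and a higher one for Rbp4. All 10 passed the edgeR test, where 70.7% of genes tested were called, 34.7% higher and 36.0% lower. The Rbp4 shares of 0.162% to 0.169% with digestion lay far above the 0.0498% to 0.0818% with pull-down, and the log2 fold change was 1.35 ± 0.0649 (SE; edgeR adjusted p = 8.26e-18), which is 2.54-fold higher. Trf, the iron carrier, moved most in the other direction, at -0.81 ± 0.0419 (edgeR adjusted p = 5.47e-17), which is 1.75-fold lower, and its digestion shares (highest 1.23%) did not reach the pull-down shares (lowest 1.45%). The fibrinogen chains again moved by similar amounts, Fga by -0.66 ± 0.0483, Fgb by -0.61 ± 0.0349 and Fgg by -0.60 ± 0.0720. Gc changed by -0.63 ± 0.0685, Ambp by -0.56 ± 0.0357, Alb by -0.44 ± 0.0509, Ahsg by -0.42 ± 0.0372 and Ttr by -0.40 ± 0.0383. On totals of non-rRNA counts the median of all genes moved from -0.01 to 0.25, and the same split of 9 lower and 1 higher was called.

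The rise with polyA selection was larger than the change with digestion for all 10 genes, each effect being measured against the unselected libraries of its own batch. By edgeR's test of the difference between the effects, 42.2% of genes tested were called, 19.3% higher and 22.9% lower. The differences ran from 0.46 ± 0.128 for Rbp4 (edgeR adjusted p = 0.00413) to 0.84 ± 0.137 for Gc (edgeR adjusted p = 6.97e-06), with Alb at 0.57 ± 0.102. On totals of non-rRNA counts the median of all genes moved from -0.06 to -0.29, and the Rbp4 difference of 0.23 was not called (edgeR adjusted p = 0.198).

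The levels of the fibrinogen chains kept nearly fixed ratios to each other across methods. Per kilobase, the ratio of Fga to Fgb was 1.66 ± 0.00528 (SD, n = 3) in unselected batch 1, 1.68 ± 0.0190 (SD, n = 9) with polyA selection, 1.69 ± 0.0848 with pull-down and 1.64 ± 0.0284 with digestion. The ratio of Fga to Fgg lay between 0.967 and 1.04 in every polyA, digestion and unselected liver library. With pull-down it reached 1.38 in the low-depth library, and the mean was 1.05 ± 0.124 (SD, n = 9). The ratio of Ttr to Alb was 0.0886 ± 0.00111 (SD, n = 3) and 0.0851 ± 0.00487 (SD, n = 3) in the unselected batches, and higher in each selected library. It was 0.131 ± 0.00796 with polyA selection, 0.122 ± 0.0192 with pull-down and 0.123 ± 0.00317 with digestion (SD, n = 9 each).

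A list of 28 other plasma protein genes, 27 of them tested, and a list of 15 hepatocyte genes whose products stay in the cell were read beside the 10. With polyA selection edgeR called 22 of the 27 higher and none lower, and 14 of the 15 higher, where 25.6% of all genes tested were called higher and 24.8% lower. Cps1, a urea cycle enzyme, was the intracellular gene called lower (-0.33). The medians were 0.49 and 0.52, close to the 0.55 of the 10 genes. Among the other plasma genes the highest were Apoa1 (0.89) and Apoa2 (0.84), apolipoproteins of high-density lipoprotein, and the lowest called were Itih4 (0.20) and Hrg (0.22). On totals of non-rRNA counts the split was 17 higher and 2 lower for the plasma list and stayed 14 and 1 for the other, where 7515 of all 15520 genes tested were called.

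With pull-down 18 of the 27 were higher and 4 lower, and 13 of the 15 were higher with none lower, beside 17.5% higher and 15.3% lower over all genes tested. The medians were 0.40 and 0.37, against 0.46 for the 10 genes. Apoa2 (0.65) and the haemoglobin-binding haptoglobin Hp (0.55) rose most, and complement C3 (-0.28) and plasminogen Plg (-0.20) fell most. None of the other plasma genes fell as far as Rbp4. With digestion 1 of the 27 was higher and 6 lower, and 1 of the 15 was higher and 3 lower, with medians of -0.12 and -0.09. Over all genes tested 7.07% were higher and 7.66% lower. Fetub (0.15) was the gene called higher, and Apoa2 (-0.63) and Apoh (-0.37) fell most. These digestion counts depended on the scaling: totals of non-rRNA counts gave 3 higher and 2 lower for the plasma list and 2 and 0 for the other, where 2983 of all 15520 genes were called. DESeq2 gave 1 and 13, and 1 and 7, where 2404 of all 15404 genes were called. Between digestion and pull-down, 4 of the 27 were higher and 21 lower, and all 15 intracellular genes were lower, beside 34.7% higher and 36.0% lower over all genes tested. Fetub (0.33) and C3 (0.32) had the highest values and Apoa2 (-1.27) and Afp (-0.81) the lowest. On totals of non-rRNA counts these counts were 4 and 16, and 1 and 10, where 11360 of all 15520 genes were called.

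Fragment length had small effects on these genes, and the direction depended on the gene and the method. Long fragments were compared with short ones within each method, over 9 libraries with the ramp rate as a covariate. In the polyA libraries edgeR called 4 genes higher and 4 lower with long fragments, where 55.2% of genes tested were called, 27.4% higher and 27.7% lower. Rbp4 changed most. Its share was 0.165%, 0.173% and 0.163% with long fragments (slow, medium and fast ramp) and 0.211%, 0.217% and 0.218% with short ones, and medium fragments at 0.207%, 0.217% and 0.216% were close to the short ones. The long and short groups did not overlap, and the log2 fold change was -0.31 ± 0.0193 (SE; edgeR adjusted p = 3.58e-07). Ahsg fell by 0.22 (-0.22 ± 0.0143), from a mean share of 0.816% ± 0.0292 (SD, n = 3) with short fragments to 0.673% ± 0.0138 with long ones. Ambp (-0.15 ± 0.0175) and Trf (-0.12 ± 0.0127) also fell.

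Gc (0.13 ± 0.0138), Fgg (0.11 ± 0.0195), Fga (0.09 ± 0.0191) and Fgb (0.07 ± 0.0223) rose with long fragments in the polyA libraries. Alb (0.01 ± 0.0110) and Ttr (-0.02 ± 0.0136) did not pass the test (edgeR adjusted p = 0.347 and 0.152). On totals of non-rRNA counts the median of all genes moved from -0.01 to -0.07 and the split became 2 higher (Fgg and Gc) and 6 lower, with Alb (-0.04) and Ttr (-0.08) among the lower. Across the 10 genes the log2 length effect in polyA libraries had a Spearman rho of -0.85 with transcript GC content and 0.56 with transcript length. In digestion libraries these values were 0.09 and 0.56. This is a description over 10 genes measured in the same libraries, and GC content and length are not separate in so few genes.

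In the digestion libraries 5 genes were called higher and 2 lower with long fragments, where 18.0% of genes tested were called, 8.80% higher and 9.15% lower. Alb fell from a mean share of 5.68% ± 0.0236 (SD, n = 3) with short fragments to 5.58% ± 0.0330 with medium and 5.24% ± 0.0242 with long ones. The long and short libraries did not overlap, and the log2 fold change was -0.12 ± 0.00896 (edgeR adjusted p = 1.99e-07). Ttr fell from 0.414% ± 0.00299 to 0.369% ± 0.00467 (-0.17 ± 0.0157, edgeR adjusted p = 2.09e-06). Fga (0.12 ± 0.0153), Trf (0.09 ± 0.00910), Ambp (0.09 ± 0.0199), Fgb (0.07 ± 0.0158) and Gc (0.04 ± 0.0128) rose. Rbp4, which changed most in the polyA libraries, had a difference of 0.02 ± 0.0153 here (edgeR adjusted p = 0.575). In a fit over all 27 selected libraries, whose estimate of spread includes the low-depth library, none of the 10 digestion effects (against 936 of all 15453 genes tested) and 3 of the 10 polyA effects (against 7681) were called.

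In the pull-down libraries edgeR called none of the 10 genes between long and short fragments, where 6.08% of genes tested were called, 4.42% higher and 1.66% lower. At an unadjusted p under 0.05 the count was 3 of 10, against 3814 of all 14426 genes tested, and DESeq2 called 0, against 1339 of all genes. The fit over all 27 selected libraries called 5 of the 10, against 5146 of all 15453 genes tested. The long group holds the low-depth library, and Alb at -0.27 ± 0.102 (edgeR adjusted p = 0.149) and Fgg at -0.35 ± 0.189 (edgeR adjusted p = 0.277) had wide errors. Without that library 5398 of all 14432 genes tested were called, and 5 of the 10 were called lower: Ambp (-0.15 ± 0.0451), Alb (-0.13 ± 0.0431), Trf (-0.13 ± 0.0416), Ahsg (-0.13 ± 0.0408) and Fga (-0.13 ± 0.0448). When it was left out, the Spearman rho of the effect went from 0.65 to -0.36 with GC content and from -0.58 to -0.25 with transcript length.

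The length effects themselves were compared between methods over the 27 selected libraries. Between polyA and digestion 4 genes had a lower effect and none a higher one, where edgeR called 32.6% of genes tested, 15.7% higher and 16.9% lower. These were Rbp4 (-0.36 ± 0.117), Ambp (-0.27 ± 0.0784), Ahsg (-0.25 ± 0.0746) and Trf (-0.24 ± 0.0748). Without the low-depth library Alb (0.11) and Ttr (0.12) were called higher as well, where 5805 of all 15743 genes tested were called. Between pull-down and digestion Ttr had a higher effect (0.26 ± 0.0690), and Fga (-0.36 ± 0.0964) and Trf (-0.29 ± 0.0748) lower ones, where 14.4% of genes tested were called, 8.10% higher and 6.35% lower. Without the low-depth library 8 of the 10 were called, Ttr higher and all but Alb and Rbp4 of the others lower, against 4081 of all 15743 genes tested.

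No change with the ramp rate, pooled over the methods, or with the batch was called in these genes. Between fast and slow ramps edgeR called none of the 10, where 0.0328% of genes tested were called, 0.00656% higher and 0.0262% lower. The differences ran from -0.04 (Rbp4) to 0.09 (Ttr), 2 of 10 had an unadjusted p under 0.05, against 664 of all 15240 genes tested, and DESeq2 called 0, against 8 of all genes. That test pools 27 libraries of 3 methods and includes the low-depth one, and a test of the ramp within a method was not run. In the polyA libraries the Ttr share was 0.485% with the slow and 0.522% with the fast ramp at long fragments, 0.512% and 0.569% at medium ones, and 0.509% and 0.558% at short ones. The Ambp share was 0.178% and 0.195%, 0.2003% and 0.229%, and 0.204% and 0.232% in the same order. After polyA selection Ttr, Ambp, Ahsg, Fga and Trf had higher shares with the fast ramp than with the slow one at each of the 3 lengths. Gc had lower ones at each length (0.634% and 0.618%, 0.616% and 0.598%, 0.614% and 0.586%), and the other 4 genes were mixed. For Trf at long fragments the slow and fast values were close (1.4307% and 1.4312%). How many of all genes kept 1 direction at the 3 lengths was not counted, so these directions have no background. With pull-down the Ttr share was also higher with the fast ramp at each length, at 0.447% and 0.476%, 0.388% and 0.438%, and 0.430% and 0.438%. With digestion the mean Ttr share was 0.398% ± 0.0255 (SD, n = 3) with the slow and 0.396% ± 0.0269 with the fast ramp. Between the unselected libraries of batch 2 and batch 1 edgeR called none of the 10, where 0% of genes tested were called. The differences ran from -0.10 (Ahsg) to 0.00 (Fga), none of the 10 had an unadjusted p under 0.05, against 848 of all 15408 genes tested, and DESeq2 called 0 of them, against 18 of all genes.

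The heart library held these messages at a level near 0.4% of that in liver. Only 1 heart library was made, so the comparison has no replicate check and no test, and intervals cover counting error only. The 10 genes had 1762 counts among 4.33 M non-rRNA counts, a summed share of 0.0407% against 9.82% ± 0.0287 (SD, n = 3) in unselected liver of the same batch, which is 242-fold lower. Alb had 950 counts in heart, a share of 0.0219% (exact 95% binomial interval 0.0206% to 0.0234%) against 5.89%, 5.94% and 5.96% in liver, 270-fold lower. Trf had 379 counts, Ahsg 92, Gc 76, Fga 67, Fgb 56, Ttr 52, Fgg 49, Rbp4 24 and Ambp 17. The order of the 5 genes with the highest levels per kilobase was that of liver. In bulk tissue fewer cells of a type and less RNA per cell cannot be told apart.

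Expressed as a percentage of the liver share, 9 of the 10 genes lay between 0.280% (Ambp, interval 0.163% to 0.448%) and 0.434% (Fgg, interval 0.321% to 0.574%). Trf stood above them at 0.649% with an interval that ended at 0.718%, and that interval did not reach those of Alb (0.347% to 0.394%), Ttr, Fga, Fgb, Fgg, Ahsg, Ambp, Rbp4 or Gc. The median was 0.394%. Of the 15 intracellular hepatocyte genes, 13 lay between 0.2% and 0.7% of their liver share, with a median of 0.410%. Fah, an enzyme of tyrosine breakdown, stood at 3.78% with 82 counts and Asl, an enzyme of the urea cycle, at 1.44%. Of 25 other plasma genes with enough counts for a ratio, 19 lay between 0.2% and 0.7%, and the median was 0.470%. Ceruloplasmin Cp (9.93%), complement C3 (2.31%) and vitronectin Vtn (1.66%) were among those above that range. The hepatocyte markers summed to 0.0111% of non-rRNA counts in heart, and the cardiomyocyte markers to 5.32%. Whether liver RNA reached the heart library was not tested.

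**Figure D2:**
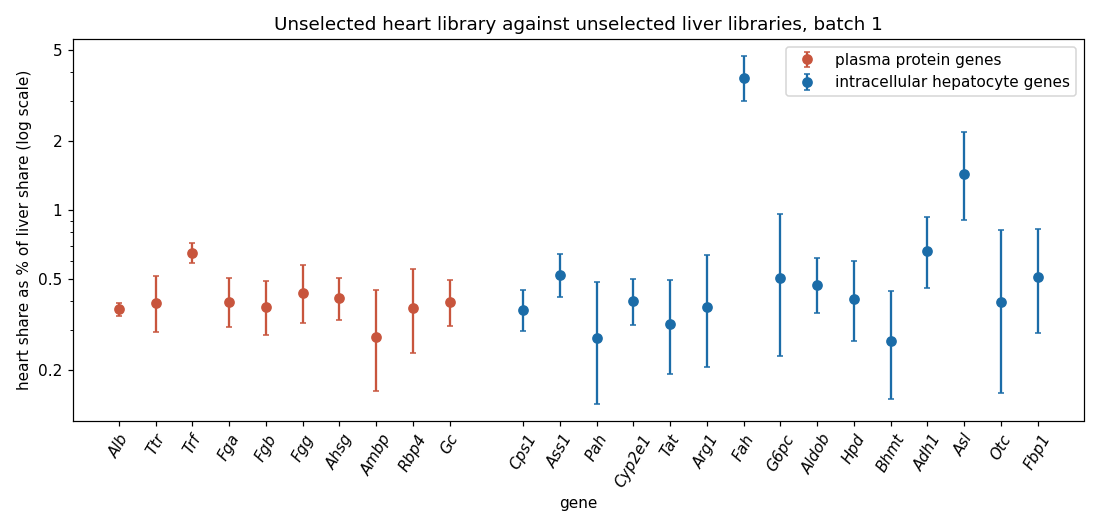
Heart share as a percentage of the liver share (log y axis) for the 10 plasma protein genes and 15 intracellular hepatocyte genes; bars are 95% counting intervals of the 1 heart library. Most points of both lists lie between 0.2% and 0.7%, Trf lies above the other 9 plasma protein genes at 0.649%, and Fah lies highest at 3.78%.

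Outside the 10 genes, the log2 share of Alb across the 33 liver libraries was most like that of Kng1 (kininogen, Pearson r = 0.955), Ces3a (a carboxylesterase, 0.943) and Serpina1c (an α1-antitrypsin, 0.938), of 1372 genes with a mean of at least 100 CPM of non-rRNA counts. Without the low-depth library these values were 0.946, 0.933 and 0.960, which puts Serpina1c before Kng1 and Ces3a. Among the 10 genes the correlation with Alb over all 33 libraries was 0.955 for Gc, 0.904 for Fgg, 0.851 for Fga, 0.821 for Fgb, 0.690 for Trf, 0.656 for Ahsg, 0.628 for Ambp and 0.525 for Ttr. For Rbp4 it was -0.02. The libraries fall into method groups, so these values describe shared differences between methods and carry no test.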

How the data were processed

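RNA sequencing was measured in 33 liver libraries and 1 heart library. The values are estimated counts per gene for 51368 genes, as deposited by the authors. The submitters' processing notes name UMI-tools 1.1.1, Salmon 1.9.0, R 4.4.0 and the build GRCm38, without the role of each, and how duplicates were handled is not given in the sources used here. GENCODE M21 matched 50896 gene IDs, and the unmatched ones held at most 0.0452% of a library's counts. Shares use counts left after 308 genes typed as rRNA, and Lars2, were taken out.

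For tests the estimated counts were rounded to whole numbers. edgeR 4.0.16 (R 4.3.3, limma 3.58.1) with TMM, filterByExpr and quasi-likelihood F-tests was fitted across all genes, with Benjamini-Hochberg adjustment and an adjusted p threshold of 0.05. Methods were compared over the 33 liver libraries in a model that also held the ramp and the fragment length, fragment lengths within each method, and the ramp over 27 selected libraries. DESeq2 1.42.0, scaling by non-rRNA totals, no filter, thinning every library to the smallest total, fewer libraries and other denominators were alternatives. The fits were tested on simulated data, with changes placed on genes at any level. Of simulated 1.5-fold changes against unselected RNA, 57.1% were recovered for polyA, 48.5% for pull-down and 41.8% for digestion. Of 2-fold changes, 77.1%, 62.9% and 63.3% were recovered in the same order. In the other comparisons simulated, 72.0% to 83.3% of 1.5-fold and 80.0% to 98.0% of 2-fold changes were recovered. Shares were computed with Python 3.11.15, pandas 2.3.3, numpy 2.4.6 and scipy 1.17.1.

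The 10 genes were always named. Other plasma genes were named by a rule, as the 2 highest and 2 lowest called for each method comparison, and the 3 genes most like Alb by Pearson r. The members and lists were chosen with earlier results of these data known. In the heart comparison, genes outside the range of most of their list were named after their values were seen. The unselected liver libraries held 2.89 M to 3.10 M non-rRNA counts, which limits precision there.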

Additional observations from a re-analysis of the deposited data

Results flagged for a closer look

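The low-depth pull-down library (slow ramp, long fragments) lay far from the other 8 pull-down libraries for 3 of the genes, of 33 sets of gene and group that were checked, where chance alone marks about 1 set in 20. Its share of Fgg was 0.184%, the lowest, against 0.308% to 0.353% in the others. Its share of Gc was 0.322%, the lowest, against 0.484% to 0.579%. Its share of Rbp4 was 0.0818%, the highest, against 0.0498% to 0.0548%. Small structured RNAs took 15.5% of its non-rRNA counts, the highest value of the 34 libraries, and their part in these shares was not tested.

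The effect of long against short fragments differed between methods for 6 of the genes by edgeR's test of the difference. Between polyA and digestion 4 of the 10 were called, against 32.6% of all genes tested, and between pull-down and digestion 3 of the 10, against 14.4%. Between polyA and digestion the log2 difference was -0.24 for Trf (edgeR adjusted p = 0.0194), -0.25 for Ahsg (0.0145), -0.27 for Ambp (0.0112) and -0.36 for Rbp4 (0.0231). Between pull-down and digestion it was 0.26 for Ttr (edgeR adjusted p = 0.0135), -0.29 for Trf (0.0134) and -0.36 for Fga (0.0142).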

How the results depend on the processing

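Of 64 called results for single genes, 600 values from refits under other settings, which do not include other denominators of the shares, gave 551 with the same direction and call, 49 with the same direction and no call, and 0 with the opposite direction. The number of the 10 genes called between digestion and unselected RNA, 2 as reported, was 6 with DESeq2 (against 2404 of all 15404 genes), 1 on totals of non-rRNA counts (2983 of 15520), 1 with no filter (2134 of 27490) and 0 after thinning (167 of 9471). It was 7 without the low-depth library (2715 of 15384), with only the compared groups (3270 of 14998) and with medium fragments only (2460 of 14927). Leaving out 1 unselected library gave 1 to 2, and Trf was lost without replicate 1 of batch 2 (edgeR adjusted p = 0.0595). For long against short fragments, the fit over 27 libraries called 3 genes for polyA (7681 of all 15453 genes), 5 for pull-down (5146) and 0 for digestion (936), and leaving out the low-depth library gave 5 for pull-down (5398 of 14432, where 877 were called with it). Leaving out 1 library gave 7 to 8, 0 to 5 and 6 to 7. Thinning gave 0 for both differences of length effects (127 and 34 of all 9468 genes), and leaving out the low-depth library gave 8 for pull-down against digestion (4081 of 15743). Thinning leaves fewer counts per library, and for the other settings the cause was not tested.

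The denominator set the shares, and turned the direction of some: Trf with digestion was 0.889 times the unselected share as reported, 1.403 times with Lars2 kept in and 5.88 times with all counts. Against unselected RNA the ratio of the summed share with all counts, with Lars2 kept in and with protein-coding genes alone was 8.47, 1.904 and 1.14 for polyA. For pull-down it was 6.05 with all counts and 1.76 with Lars2 kept in. For digestion it was 6.27, 1.49 and 0.914, and for heart as a percentage of liver 0.557, 0.489 and 0.521. Over all genes, thinning left 1417 of 7769 calls in number for polyA, 768 of 5051 for pull-down and 167 of 2271 for digestion. With the replicate block between the unselected batches, 0 of the 10 genes and 82 of all genes were called, against 0 and 0 without it. Same-numbered libraries had correlations of -0.017, -0.033 and -0.041, so they share only a number. Heart counts of 17 to 950 and the single heart library limit that comparison.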
